A study of Mus musculus with 8 samples.

Results

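Aquaporins are membrane channels that let water follow an osmotic gradient across a cell, and 9 aquaporin genes were examined in the caput (head) of the mouse epididymis, where sperm leaving the testis begin to mature. The genes were taken by symbol (Aqp1, Aqp2, Aqp3, Aqp4, Aqp5, Aqp7, Aqp8, Aqp9 and Aqp11), and each had a row among the 24059 gene symbols counted. Whole caput from Nell2-KO mice (genotype Nell2-/-) was compared with whole caput from wild-type (WT) mice, both of strain C57BL/6N and aged 14 weeks, with 4 libraries of each genotype. Nell2 encodes a secreted glycoprotein that germ cells of the testis release into the lumen, and the comparison addresses what caput transcription looks like when it is missing. The labels give neither the construction of the Nell2-/- allele nor a separate animal for each replicate, and p-values here reflect library-to-library spread, which may be technical.

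In the efferent ducts and epididymis, water is drawn out of the lumen after salt, which concentrates the sperm. Classical aquaporins such as Aqp1, Aqp2, Aqp4 and Aqp5 pass water, aquaglyceroporins such as Aqp3, Aqp7 and Aqp9 also pass glycerol and other small uncharged solutes, and Aqp11 belongs to a distant branch found on intracellular membranes. The pore of each monomer is lined by a pair of short loops that usually carry the residues asparagine, proline and alanine (the NPA boxes).

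The 3 aquaporins with appreciable reads in these libraries belong to these different branches, and their NPA boxes are shown for that reason. Each line gives 30 coding bases of the GENCODE M21 transcript with the longest coding sequence, 5′ to 3′ on the gene's own strand, and the capitals mark the 3 codons of the box. Box 1 of Aqp1 lies in exon 1 at chr6:55336707-55336736 of mm10 (plus strand) and box 2 in exon 3 at chr6:55345828-55345857. Box 1 of Aqp9 lies in exon 3 at chr9:71132729-71132758 (minus strand) and box 2 in exon 5 at chr9:71122838-71122867. Box 1 of Aqp11 lies in exon 1 at chr7:97737673-97737702 (minus strand) and box 2 in exon 2 at chr7:97729041-97729070.
Aqp1 box 1: gctcacctcAACCCTGCGgtcacactgggg
Aqp1 box 2: tgcggtatcAACCCTGCCcggtcatttggc
Aqp9 box 1: ggccacatcAACCCAGCGgtgtcttttgca
Aqp9 box 2: tgtgccatgAACCCTGCTcgagacctcagc
Aqp11 box 1: acagctagcAACCCGTGCggcgtgatgatg
Aqp11 box 2: gcattgtttAACCCAGCGctggcactttct
Both boxes of Aqp1, which start at codons 76 and 192, and both boxes of Aqp9, which start at codons 110 and 242, encode asparagine, proline and alanine. In Aqp11 the first box, at codon 99, ends in a cysteine codon, and the second, at codon 216, encodes asparagine, proline and alanine. In-frame searches for AACCCNGCN or AATCCNGCN found 2 such boxes in Aqp1, Aqp2, Aqp3, Aqp4, Aqp5, Aqp8 and Aqp9, 1 in Aqp11 and 0 in Aqp7. At least 2 in-frame matches were found in 0.71% of 21562 mouse genes with a coding sequence.

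Library totals ran from 801112 to 6256204 counts in Nell2-KO and from 2073811 to 2517387 counts in WT. Nell2 had 0 reads in each of the 8 libraries and so did not check the labels. In CPM (counts per 1000000 of a library's TMM-scaled total), the caput genes Gpx5 and Adam7 were at 65530 to 90290 CPM and 15120 to 21650 CPM in Nell2-KO, and at 63030 to 73730 CPM and 26190 to 28240 CPM in WT. Nell2-KO replicate 1 had the lowest total. WT replicate 2 stood apart from the other WT libraries (chi-square of counts per degree of freedom 8.02 to 10.5, against 1.29 to 2.09 among those 3). Nell2-KO replicates 1 and 4 stood apart from Nell2-KO replicates 2 and 3 and from each other (7.42 to 17.6, against 2.12 between replicates 2 and 3). This measure rises with depth, so its values for Nell2-KO pairs, whose totals differ widely, are not distances on a common scale. Without Nell2-KO replicate 1 and WT replicate 2, the log2 fold changes of Aqp9, Aqp1 and Aqp11 were -0.95, -1.23 and -0.07, each with an edgeR adjusted p above the threshold (0.365, 0.273 and 0.887).

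The aquaporin signal of the caput came nearly all from Aqp9, Aqp1 and Aqp11. The 9 genes together took 1368 of 13782213 counts in Nell2-KO and 1532 of 8847336 in WT, and Aqp9 alone took 956 and 1020 of these. Only these 3 genes passed the filter on low counts. Aqp4, Aqp7 and Aqp2 had a few reads, and Aqp3, Aqp5 and Aqp8 had 0 reads in all 8 libraries. Of the 3 genes tested, 0 passed an adjusted p of 0.05 in edgeR's quasi-likelihood test, and 0 in DESeq2, while edgeR called 15.0% of all 11062 genes tested (8.71% lower and 6.24% higher in Nell2-KO). At an unadjusted p under 0.05, edgeR had 2 of the 3, Aqp1 and Aqp9, and 2964 of all genes. The log2 fold changes of the 3 were -1.07, -0.85 and -0.14, against a median of 0.03 over all genes tested. On log2(RPKM + 0.1), both the values (the authors' RPKM, without TMM factors) and the test (limma) differ. There, 49 genes were called higher and 410 lower, against 690 and 964 by edgeR on the counts, and the median of all genes was -0.22. The RPKM of these 3 aquaporins were also low for their CPM in Nell2-KO replicate 1. Aqp11, for instance, was at 1.74 RPKM and 8.45 CPM there, against 3.64 RPKM and 7.27 CPM in Nell2-KO replicate 2.

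**Figure D1:**
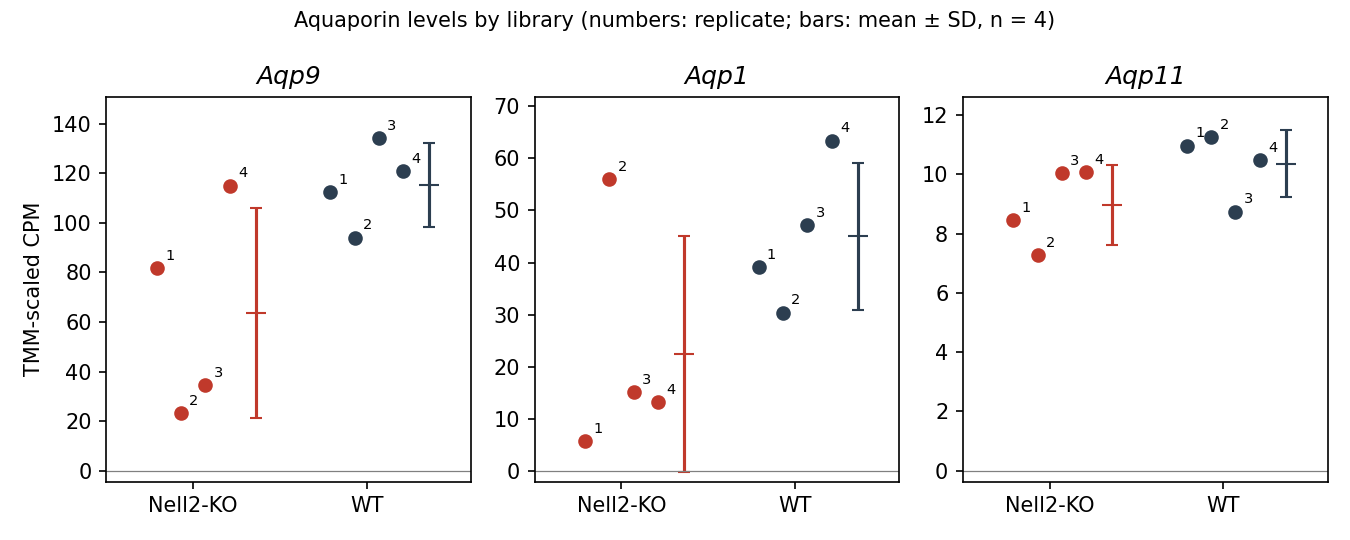
Levels of Aqp9, Aqp1 and Aqp11 in each library, in CPM (vertical axis), for Nell2-KO (red) and WT (dark blue); small numbers give the replicate, and bars the mean ± SD (n = 4). The Nell2-KO values of Aqp9 run from 23.3 to 115 CPM and those of Aqp1 from 5.63 to 56.0 CPM, while Aqp11 stays between 7.27 and 11.3 CPM in all 8 libraries.

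Aqp9 encodes the aquaglyceroporin of the apical membrane of epididymal principal cells, described best in the rat, and passes water, glycerol, urea and lactate. Its gene (ENSMUSG00000032204.13) is on the minus strand of chromosome 9 (mm10, 71110659 to 71168682) and overlaps an antisense gene and a processed pseudogene on the other strand. Whether the counting used strand is not stated, so reads of the antisense gene cannot be told apart from those of Aqp9. Aqp9 was at 81.7, 23.3, 34.6 and 115 CPM in Nell2-KO replicates 1 to 4, on 58, 32, 227 and 639 reads. It was at 112, 94.0, 134 and 121 CPM in WT replicates 1 to 4, on 287, 192, 276 and 265 reads. Nell2-KO replicate 4 lay inside the WT range, and the other 3 Nell2-KO libraries lay below it. The mean was 63.6 ± 42.5 CPM in Nell2-KO and 115 ± 16.8 CPM in WT (SD, n = 4 each).

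The difference of Aqp9 did not pass the test (log2 fold change -0.85 ± 0.39, SE, 95% interval -1.70 to -0.01, edgeR adjusted p = 0.183). Leaving out Nell2-KO replicate 4, the library inside the WT range, gave a log2 fold change of -1.44 (edgeR adjusted p = 0.0172). The other alternatives gave no call, with an adjusted p of up to 0.383. 

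Summed marker levels of several cell types, principal cells included, were set beside Aqp9. The summed level of 10 germ cell and sperm markers was 201, 77.1, 61.1 and 183 CPM in Nell2-KO replicates 1 to 4, and 136, 116, 68.0 and 59.3 CPM in WT replicates 1 to 4. All 10 had reads, 0 of the 4 tested were called, and Smcp and Odf1, genes of the sperm tail, were the most abundant. The 17 initial segment markers summed to 9257, 4118, 4316 and 10650 CPM in Nell2-KO replicates 1 to 4, and to 36680 to 43570 CPM in WT. Most of the sum in Nell2-KO replicates 1 and 4 was Rnase9, at 7169, 1471, 1781 and 7759 CPM in Nell2-KO replicates 1 to 4, against 1018, 42.6, 1282 and 1308 CPM in WT replicates 1 to 4. The other 16 markers summed to 2088, 2647, 2535 and 2890 CPM in Nell2-KO replicates 1 to 4, lowest in replicate 1, and to 35370 to 43530 CPM in WT. Of the 17 markers, 3 were called higher and 13 lower in Nell2-KO, against 6.24% and 8.71% of all genes tested. Among Nell2-KO libraries, single markers ran both ways. Lcn2 and Defb15 were lowest in Nell2-KO replicate 1, at 810 and 407 CPM, against up to 1103 and 921 CPM in that group. Between genotypes, Lcn2 was called lower in Nell2-KO (mean 948 CPM, against 3449 CPM in WT). Defb15 was called higher in Nell2-KO (mean 756 CPM, against 290 CPM in WT). Adam28 and Lcn8 were highest in Nell2-KO replicate 1, at 22.5 and 18.3 CPM, against at most 1.5 CPM in the rest of that group. The 10 principal cell markers in the table summed to 94290 to 117700 CPM in Nell2-KO and to 93830 to 104600 CPM in WT, nearly all of it Gpx5 and Adam7. Of these 10, 2 were called higher (Lcn5 and Lcn12) and 3 lower (Adam7, Crisp1 and Spink13) in Nell2-KO, against 6.24% and 8.71% of all genes tested. The part of these cell types in the level of Aqp9 was not tested. In bulk tissue, fewer cells of a type and less RNA per cell cannot be told apart.

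Over the 8 libraries, the genes whose log2(CPM + 1) was most like that of Aqp9 were Map2k4 (Pearson r = 0.99), Gpd1l (r = 0.96) and Bend5 (r = 0.96). Map2k4 encodes a kinase upstream of JNK, and Gpd1l a protein related to glycerol-3-phosphate dehydrogenase. These values are the highest of a search over many genes in 8 libraries. They share the libraries, their depth and their genotype, and are a description. Pearson r also leaves out the size of a difference. The log2 fold changes of Map2k4, Gpd1l and Bend5 were -0.14, -0.21 and -0.61, against -0.85 for Aqp9, and none was called.

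Aqp1 encodes the water channel of vascular endothelium, erythrocytes and the non-ciliated cells of the efferent ducts. The gene (ENSMUSG00000004655.5) is on the plus strand of chromosome 6 (mm10, 55336432 to 55348555) and overlaps no other annotated gene. Aqp1 was at 5.63, 56.0, 15.1 and 13.1 CPM in Nell2-KO replicates 1 to 4, on 4, 77, 99 and 73 reads. It was at 39.2, 30.3, 47.1 and 63.4 CPM in WT replicates 1 to 4, on 100, 62, 97 and 139 reads. Nell2-KO replicates 1, 3 and 4 lay below every WT library, and Nell2-KO replicate 2 lay inside the WT range. Means were 22.5 ± 22.7 CPM in Nell2-KO and 45.0 ± 14.1 CPM in WT (SD, n = 4 each).

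The difference of Aqp1 did not pass the test (log2 fold change -1.07 ± 0.47, SE, 95% interval -2.10 to -0.05, edgeR adjusted p = 0.165). Leaving out Nell2-KO replicate 2 gave a log2 fold change of -1.79 (edgeR adjusted p = 0.0035), and over the other alternatives the adjusted p ran up to 0.450 (limma on log2(RPKM + 0.1)). The only library whose omission gave a call was thus Nell2-KO replicate 2 for Aqp1 and Nell2-KO replicate 4 for Aqp9. Each was the Nell2-KO library inside the WT range, so leaving it out was bound to widen the difference. Nell2-KO replicate 2 held the highest Aqp1 and the lowest Aqp9 of its group.

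Endothelial markers, which mark a cell type that makes Aqp1, were lower in Nell2-KO as a sum. The 10 endothelial markers summed to 67.8 to 78.9 CPM in Nell2-KO and to 122 to 157 CPM in WT, ranges that did not overlap. Taken singly, 22.1% of all genes tested had groups without overlap. Of the 9 endothelial markers tested, 4 were called lower and 0 higher in Nell2-KO, against 8.71% and 6.24% of all genes tested. Pecam1, an adhesion molecule of endothelial junctions, fell to 12.2 ± 0.93 CPM in Nell2-KO, against 26.6 ± 0.53 CPM in WT (SD, n = 4 each, edgeR adjusted p = 0.00039). Cdh5, the endothelial cadherin, was at 16.4 ± 5.47 CPM in Nell2-KO and 19.2 ± 4.02 CPM in WT, and did not pass the test.

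Nell2-KO replicate 2, where Aqp1 was high, had an endothelial sum of 76.4 CPM, inside the range of its group. That library had the highest sum of the 8 ciliated cell markers, at 64.7 CPM, against 45.1, 15.5 and 22.1 CPM in Nell2-KO replicates 1, 3 and 4. WT replicates 1 to 4 were at 25.5, 47.5, 19.9 and 40.1 CPM in this sum, and ciliated cells line the efferent ducts beside the cells that make Aqp1. The ranges overlapped, and 0 of the 3 ciliated cell markers tested were called. Nell2-KO replicate 1, at 45.1 CPM in this sum, had the lowest Aqp1 of all 8 libraries (5.63 CPM). WT replicate 2, at 47.5 CPM, had the lowest Aqp1 of WT (30.3 CPM). WT replicate 4, at 40.1 CPM, had the highest Aqp1 of WT (63.4 CPM). Of 7 erythrocyte markers, Hba-a1, Hbb-bt and Slc4a1 had 0 reads, and the list summed to 0 to 2.59 CPM in Nell2-KO and 0 to 3.43 CPM in WT. The part of endothelium and efferent duct in the level of Aqp1 was not tested.

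**Figure D2:**
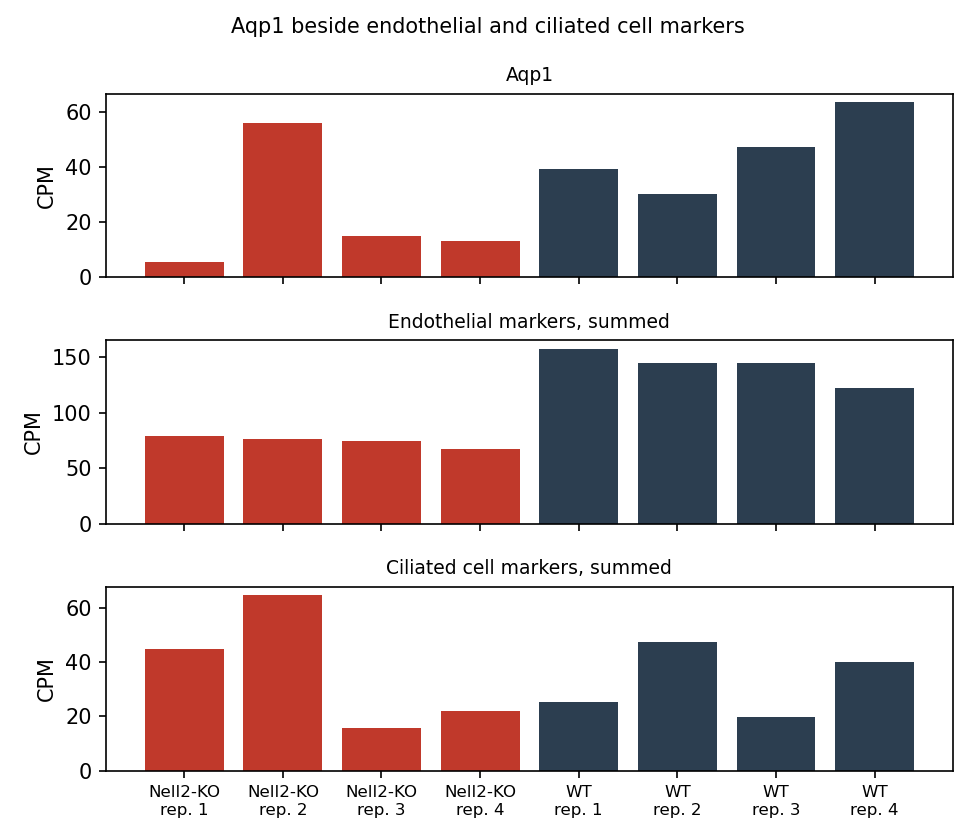
Aqp1 (top), the summed 10 endothelial markers (middle) and the summed 8 ciliated cell markers (bottom) in each library, in TMM-scaled CPM; Nell2-KO libraries are red and WT libraries dark blue. Endothelial sums are at 67.8 to 78.9 CPM in all 4 Nell2-KO libraries. Aqp1 reaches 56.0 CPM in Nell2-KO replicate 2, the library with the highest ciliated cell sum (64.7 CPM). Aqp1 is lowest in Nell2-KO replicate 1 (5.63 CPM), where the ciliated cell sum is 45.1 CPM.

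The genes most like Aqp1 over the 8 libraries were Dnaja4 (r = 0.98), Fam131a (r = 0.98) and Ublcp1 (r = 0.97). Dnaja4 encodes a co-chaperone of the DnaJ family and Ublcp1 a phosphatase with a ubiquitin-like domain. The same limits hold for these values.

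Aqp11 encodes the intracellular aquaporin whose loss in mice causes polycystic kidneys, and lies on chromosome 7 at 97724006 to 97738289 of mm10 (ENSMUSG00000042797.9, minus strand). It was at 8.45, 7.27, 10.1 and 10.1 CPM in Nell2-KO replicates 1 to 4, against 11.0, 11.3, 8.75 and 10.5 CPM in WT replicates 1 to 4. The ranges overlapped, and the values varied less than those of Aqp9 and Aqp1. The mean was 8.96 ± 1.36 CPM in Nell2-KO and 10.4 ± 1.12 CPM in WT (SD, n = 4 each). Its log2 fold change was -0.14 ± 0.20 (SE, edgeR adjusted p = 0.80), with a 95% interval of -0.59 to 0.31. This interval leaves out a 2-fold difference in either direction, but the depth was low, with 6 and 10 reads in Nell2-KO replicates 1 and 2.

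Levels of different genes were compared within a library by the authors' RPKM, which divide by length. Aqp9 was the highest of the family in all 4 WT libraries (16.5 to 27.3 RPKM), Aqp1 the second (6.02 to 14.8 RPKM) and Aqp11 the third (4.19 to 5.37 RPKM). In Nell2-KO the order was Aqp9, Aqp11 and Aqp1 in replicates 1, 3 and 4, and Aqp1, Aqp9 and Aqp11 in replicate 2. Aqp9 was thus the highest in 7 of 8 libraries, and Aqp1 stood above Aqp11 in 4 of 4 WT and 1 of 4 Nell2-KO libraries. The ranges of the 3 genes did not overlap in WT, while in Nell2-KO they did. Nell2-KO ranges were 4.95 to 24.0 RPKM for Aqp9, 0.554 to 13.4 RPKM for Aqp1 and 1.74 to 5.06 RPKM for Aqp11. The lowest Aqp1 and Aqp11 values were those of replicate 1, on 4 and 6 reads, where RPKM were low for the CPM.

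As a share of the summed RPKM of the 9 genes, Aqp9 took 75.7%, 22.0%, 44.9% and 74.7% in Nell2-KO replicates 1 to 4, against 55.2% to 64.2% in WT. Aqp1 took 5.89%, 59.7%, 22.1% and 9.62% in Nell2-KO replicates 1 to 4, against 21.9% to 32.7% in WT. Aqp11 took 15.4% to 30.8% in Nell2-KO and 9.85% to 16.9% in WT. The make-up of the family was alike among WT libraries and differed between Nell2-KO libraries on both sides of the WT range for Aqp9 and Aqp1. Among all genes with reads in a library, Aqp9 stood at the 56.4th to 90.4th percentile by RPKM in Nell2-KO and at the 86.7th to 90.6th in WT.

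**Figure D3:**
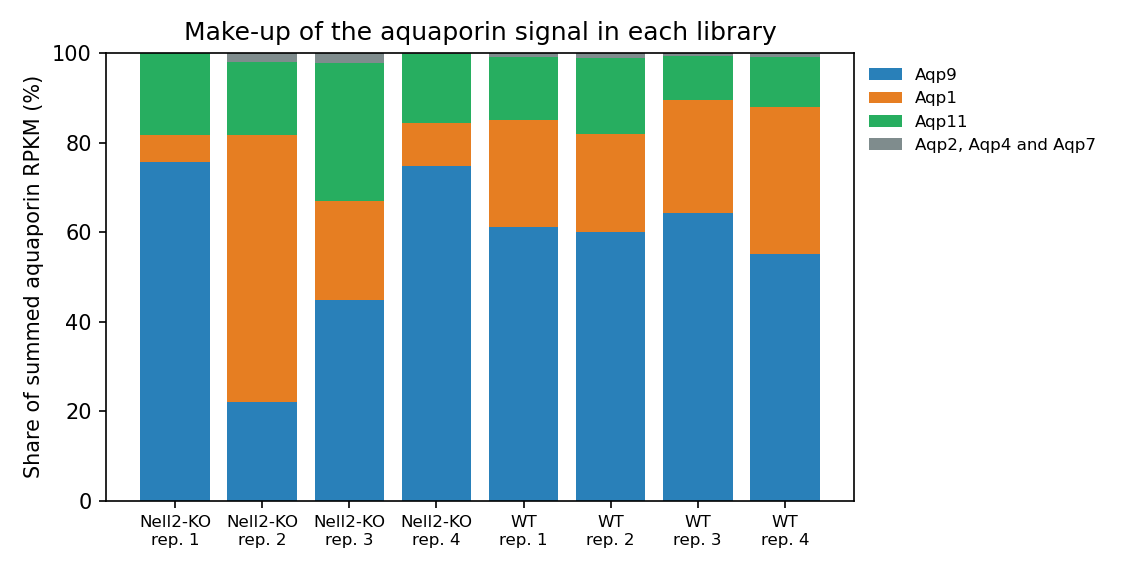
Share of the summed RPKM of the 9 aquaporins (vertical axis, percent) taken by Aqp9, Aqp1, Aqp11 and the other members with reads, in each Nell2-KO and WT library. Aqp9 takes 55.2% to 64.2% in the WT libraries and from 22.0% to 75.7% in the Nell2-KO libraries, and Aqp1 takes 59.7% in Nell2-KO replicate 2.

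Aqp4, the water channel of astrocyte endfeet, had 0, 5, 9 and 2 reads in Nell2-KO replicates 1 to 4 and 5, 6, 2 and 7 reads in WT replicates 1 to 4. The pooled libraries held 1.13 CPM in Nell2-KO (exact Poisson 95% interval 0.644 to 1.83) and 2.26 CPM in WT (1.38 to 3.49), and the ratio of pooled scaled counts was 0.498 (exact binomial 95% interval 0.241 to 1.01). With no molecular identifiers on the reads, such intervals cover counting error alone and do not include the spread between libraries. Without the filter on low counts, its edgeR adjusted p was 0.469. An antisense gene overlaps it on the other strand.

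Aqp7, the glycerol channel of adipocytes that is also found in sperm, had 4 reads in pooled Nell2-KO and 2 in pooled WT (ratio of scaled counts 1.25, exact binomial 95% interval 0.178 to 13.8). The 8 adipocyte markers summed to 19.7 to 30.0 CPM in Nell2-KO and 26.0 to 29.9 CPM in WT, nearly all of it Plin4, which was at 18.3 to 29.6 CPM in Nell2-KO and 26.0 to 29.4 CPM in WT. Plin4 was the only one of the 8 that passed the filter on low counts, and it was not called. Cfd had 0 reads, and Adipoq, Plin1, Fabp4, Cidec and Retn had 1 or 2 reads each over the 8 libraries. Aqp2, the vasopressin-regulated channel of the kidney collecting duct, had 1 read in Nell2-KO and 0 in WT, and Avpr2, the vasopressin receptor that controls it in kidney, had 0 reads in all 8 libraries. A difference in these genes was not detectable at this depth.

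Aqp3, the basolateral aquaglyceroporin of many epithelia, Aqp5, the water channel of salivary and other glands, and Aqp8, a channel of germ cells and liver, had 0 reads throughout. With 3 reads as the upper limit of a zero count, the levels still possible are up to 0.211 CPM in pooled Nell2-KO and 0.339 CPM in pooled WT. The exact Poisson 95% intervals, as given for Aqp4, reach 0.260 CPM in pooled Nell2-KO and 0.417 CPM in pooled WT. Both limits cover counting error alone. In a single library the limit of 3 reads ran from 0.457 to 4.22 CPM in Nell2-KO and from 1.18 to 1.47 CPM in WT. Aqp3 has been described in basal cells of the rat epididymis, and the 6 basal cell markers summed to 286 to 335 CPM in Nell2-KO and to 418 to 450 CPM in WT. Of these 6, 2 were called lower (Trp63 and Cldn1) and 0 higher, against 8.71% and 6.24% of all genes tested. Krt5 was at 49.0 ± 17.8 CPM in Nell2-KO and 42.1 ± 6.80 CPM in WT (SD, n = 4 each). Aqp2 and Aqp5 lie together on chromosome 15, 4.05 and 4.06 Mb from Nell2.

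Genes of related transport, osmotic response and hormone reception were taken from 4 lists, chosen with earlier results of these data known. Of 50 genes tested in all, 7 were higher and 11 lower in Nell2-KO, against 6.24% and 8.71% of all genes tested. Because of that choice, the counts for these lists are a description and not a test of an excess. Among 15 genes tested for ion transport, which sets the gradients that water follows, 4 rose and 4 fell, against 6.24% and 8.71% of all genes, with a median log2 fold change of -0.07 against 0.03 over all genes. Cftr, the apical chloride and bicarbonate channel, fell to 22.6 ± 5.04 CPM in Nell2-KO, against 195 ± 22.9 CPM in WT (SD, n = 4 each, log2 fold change -3.05 ± 0.17, SE, edgeR adjusted p = 1.7e-07). Car12, a membrane carbonic anhydrase, rose to 166 ± 25.3 CPM in Nell2-KO, against 70.4 ± 12.2 CPM in WT. The chloride and bicarbonate exchanger Slc26a3 rose to 48.3 ± 14.0 CPM in Nell2-KO, against 18.7 ± 2.59 CPM in WT.

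Of 14 genes tested that handle the small solutes carried by aquaglyceroporins, 2 rose and 2 fell, against 6.24% and 8.71% of all genes, with a median log2 fold change of 0.20. Gyk, glycerol kinase, which traps glycerol inside the cell, was at 228, 229, 179 and 233 CPM in Nell2-KO replicates 1 to 4, against 430, 436, 438 and 475 CPM in WT replicates 1 to 4. All 4 Nell2-KO libraries lay below all 4 WT libraries (log2 fold change -1.04 ± 0.14, SE, edgeR adjusted p = 0.00023), a separation seen in 22.1% of all genes tested. The ammonia transporter gene Rhcg rose to 343 ± 104 CPM in Nell2-KO, against 176 ± 35.4 CPM in WT. Rhbg, its relative, fell to 5.17 ± 3.97 CPM in Nell2-KO, against 15.3 ± 2.36 CPM in WT, but leaving out any 1 of 6 libraries ended this call (edgeR adjusted p as high as 0.128). Ldha, a lactate dehydrogenase subunit, rose to 123 ± 16.1 CPM in Nell2-KO, against 67.1 ± 16.5 CPM in WT.

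Of 14 osmotic response genes tested, 1 rose and 2 fell, with a median log2 fold change of 0.10. This share called lies near the 15.0% of all genes tested. Lrrc8c, a subunit of the volume-regulated anion channel, rose to 61.8 ± 5.02 CPM in Nell2-KO, against 34.4 ± 2.80 CPM in WT. Slc5a3, which takes up the osmolyte myo-inositol, fell to 166 ± 26.6 CPM in Nell2-KO, against 302 ± 91.1 CPM in WT, and the amino acid transporter gene Slc38a2 fell to 64.8 ± 8.22 CPM in Nell2-KO, against 103 ± 5.20 CPM in WT. Of 7 hormone receptor genes tested, 0 rose and 3 fell, against 6.24% and 8.71% of all genes. Gper1, a membrane receptor for oestrogen, fell to 0.742 ± 0.622 CPM in Nell2-KO, against 11.3 ± 4.21 CPM in WT. The mineralocorticoid receptor gene Nr3c2 fell to 9.36 ± 2.45 CPM in Nell2-KO, against 20.1 ± 3.76 CPM in WT.

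Of the genes named here from these lists, Cftr, Slc26a3 and Gper1 were also called by limma on log2(RPKM + 0.1), and the others were not (adjusted p = 0.0529 for Gyk). On log2(RPKM + 1) limma also called Gyk and Nr3c2. The calls of Rhbg and Nr3c2 ended when all libraries were thinned to the smallest total, and Gper1 was not tested there.

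**Figure D4:**
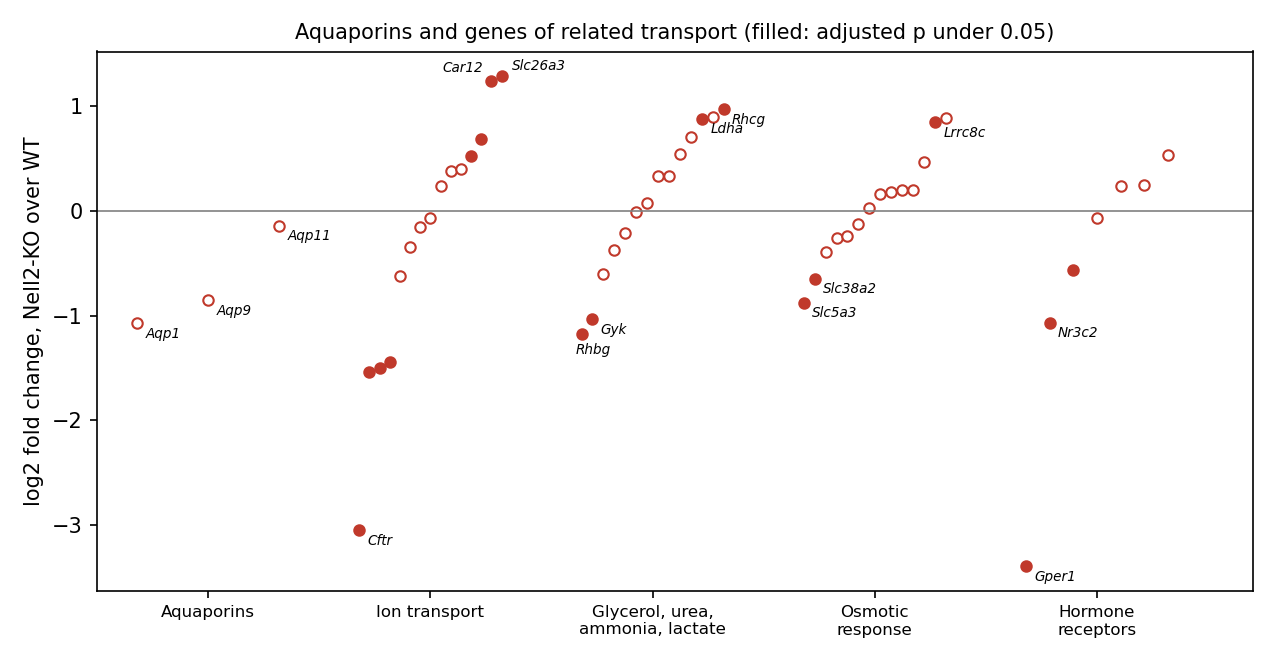
log2 fold change of Nell2-KO over WT (vertical axis) for the 3 aquaporins tested and for the tested genes of the 4 lists, each point a gene, filled where the edgeR adjusted p is under 0.05, with the genes named in the text labelled. The aquaporins are open points between -1.07 and -0.14, while Cftr (-3.05), Gyk (-1.04) and Gper1 (-3.40) are filled.

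Under the 16 alternatives fitted for Aqp1 and Aqp9 and the 15 for Aqp11, all 3 log2 fold changes were below 0. They ran from -1.79 to -0.82 for Aqp1, from -1.44 to -0.59 for Aqp9 and from -0.42 to -0.06 for Aqp11. On the authors' RPKM, which were low for the CPM in Nell2-KO replicate 1, Aqp11 was at -0.42 beside a median of -0.22 over all genes. Aqp1 and Aqp9 each passed the test under 1 alternative and Aqp11 under 0.

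**Figure D5:**
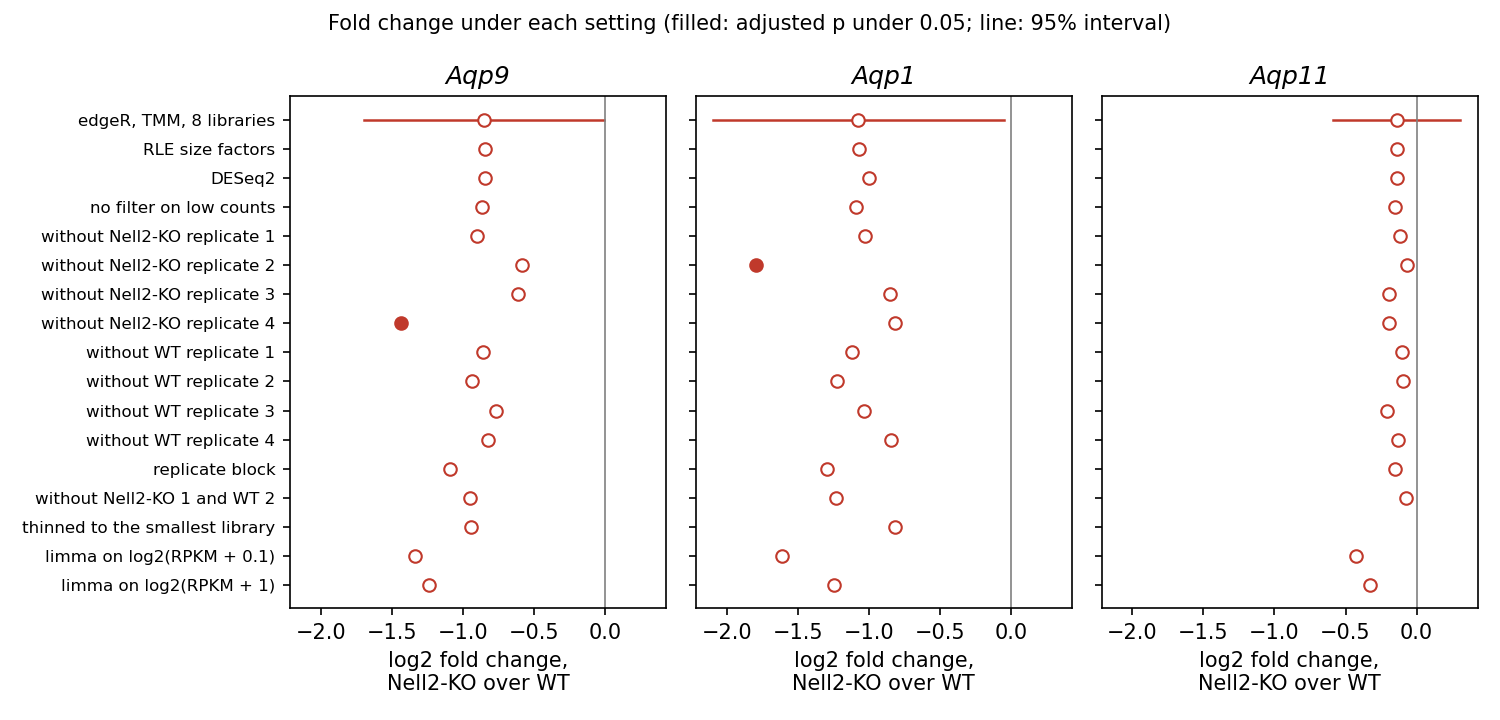
log2 fold change of Nell2-KO over WT (horizontal axis) of Aqp9, Aqp1 and Aqp11 under each setting (rows), with the 95% interval of the edgeR fit over all 8 libraries as a line and filled points at an adjusted p under 0.05. The filled points are Aqp9 without Nell2-KO replicate 4 (-1.44) and Aqp1 without Nell2-KO replicate 2 (-1.79).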

How the data were processed

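Total RNA was linearly amplified before stranded libraries were made and read as short single-end reads, per the labels' protocols. Per the file headers, the authors deposited raw counts and RPKM for each symbol. Base calling software (CASAVA 1.8.2), read quality control (FastQC 0.11.2), the aligner Bowtie2 (2.2.0) and build mm10 are named in the submitters' processing notes. The sources used here do not give the counting tool, annotation or strand setting. Differential tests ran in R 4.3.3 on the counts with edgeR 4.0.16 (TMM scaling, the default expression filter, robust quasi-likelihood test of genotype without covariates), with Benjamini-Hochberg adjustment over 11062 genes and calls at an adjusted p under 0.05. CPM are counts per 1000000 of the TMM-scaled total. The SE is the log2 fold change divided by the root of F. Alternatives used RLE factors, DESeq2 1.42.0, no filter, single libraries left out, a replicate block, thinning, and limma 3.58.1 on log2(RPKM + 0.1) and log2(RPKM + 1). The test was checked on simulated data. Gene positions and coding sequences came from GENCODE M21 on mm10.

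All 9 members were named. From each of the 4 lists up to 4 called genes were named by adjusted p, from each marker list up to 2 by level, and for members at or above the median level the 3 genes with the highest Pearson r. Some genes that this rule names are not reported here. The members and lists were chosen with earlier results of these data known. Zero-read markers, further genes named from marker lists, libraries singled out and genes in the closing section were picked after their values were seen.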

Additional observations from a re-analysis of the deposited data

How the results depend on the processing

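The number of aquaporins called lower was 0 under every alternative except without 1 library, where it was 0 to 1, and the number called higher was 0 under all. Over all genes, leaving out single libraries gave 443 to 1249 higher and 748 to 1541 lower, against 690 and 964. Among the genes of the 4 lists it gave 6 to 13 higher and 9 to 14 lower, against 7 and 11. Without both Nell2-KO replicate 1 and WT replicate 2, 1391 genes were higher and 1694 lower, with 14 list genes higher. With thinning to the smallest library 393 were higher and 627 lower, with 7 list genes lower, and Aqp11 was not tested. On log2(RPKM + 0.1), limma called 49 higher and 410 lower (1 and 3 list genes), and on log2(RPKM + 1) 64 higher and 504 lower (1 and 6 list genes). The replicate block gave 436 genes higher and 748 lower and changed no aquaporin call (edgeR adjusted p = 0.0809 for Aqp9 and 0.156 for Aqp1). Deviations of same-numbered libraries from their group means correlated at -0.28, -0.17, 0.17 and 0.17. With 4 libraries of each genotype, these values cannot settle whether replicate numbers pair the libraries. Low depth in Nell2-KO replicate 1 limits Aqp1 and Aqp11 there to 4 and 6 reads.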

Other observations

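Aqp6, a channel of intracellular vesicles in kidney that was outside the 9 genes, had 0, 1, 4 and 5 reads in Nell2-KO replicates 1 to 4 and 0, 0, 1 and 0 reads in WT replicates 1 to 4. The ratio of pooled scaled counts was 6.23 with an exact binomial 95% interval of 0.886 to 270 (counting error only). Mip had 2 reads in Nell2-KO and 1 in WT, and Aqp12 had 0 in both.

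Defb21, a beta-defensin picked after its values were seen, was high in the Nell2-KO libraries where Aqp9 was high, at 404, 64.7, 87.4 and 511 CPM in Nell2-KO replicates 1 to 4, against 110, 62.2, 159 and 134 CPM in WT replicates 1 to 4. Other genes of the same marker lists ran otherwise: Defb15 was at 407, 921, 841 and 857 CPM, and Lcn6 at 103, 298, 319 and 220 CPM, in Nell2-KO replicates 1 to 4. In WT replicates 1 to 4, Defb15 was at 319, 79.3, 364.5 and 397 CPM, and Lcn6 at 245, 134, 265 and 249 CPM.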
